A study of Rattus norvegicus with 6 samples.

Results

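The glycolysis and hypoxia response genes described here are 35 listed symbols that cover the hypoxia-inducible factors, the enzymes and transporters that carry glucose to lactate, and genes known to respond to low oxygen. Of these, 33 were found by symbol among the 17030 symbols of the FPKM table, and 30 of the 10740 symbols tested were members. Pkm2 is an older symbol of Pkm in RefSeq and has no row of its own, and Egln1 was not analysed here. Slc2a3, Tpi1 and Eno2 fell below the minimum mean of 1 FPKM used for testing, where FPKM is a level corrected for transcript length and for the number of reads of a library. Messenger RNA had been sequenced from 6 samples labelled as PAIII tumors. PAIII is a transplantable castration resistant prostate carcinoma line, and per the study's methods it was injected under the skin of Lobund-Wistar rats, its own strain, at 2 months of age. Tumors A1, A6 and A12 came from rats given digitoxin, a cardiac glycoside that blocks the sodium pump, each day at 0.03 mg/kg from day 10, and tumors B5, B9 and B14 from rats given vehicle, so n = 3 in each group and all tumors were taken on day 40. Values of single tumors follow this order wherever 3 are listed for a group. Each library pooled 10 punches of 1 mm from frozen sections of 300 micron. The digitoxin-treated rats had been picked from those with low serum IL-6 and CINC-1 and the vehicle-treated rats from those with high levels, so treatment and serum level cannot be told apart.

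Cells respond to low oxygen through hypoxia-inducible factors, dimers of an oxygen-regulated alpha subunit, made by Hif1a or Epas1, and the constant subunit Arnt. In oxygen, prolyl hydroxylases of the Egln family mark the alpha subunit for destruction by the Vhl ubiquitin ligase, so its activity is set mostly at the protein level. When stabilized, the dimer binds the core hypoxia response element, which reads ACGTG or GCGTG, and raises transcription of glucose transporters, of nearly every glycolytic enzyme, and of Vegfa, Adm and Bnip3. Tumors often run glycolysis at a high rate even in oxygen. Epas1 is known for high expression in endothelial cells and in lung.

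The 250 bases before the annotated start site are shown for the 2 alpha subunits and for 4 response genes, to display windows with and without the core element. They were taken from RefSeq on build GRCr8, which is not the build of the expression table, and they lie at chr6:98359648-98359897 on the plus strand for Hif1a, chr6:13624730-13624979 on the minus strand for Epas1, chr5:138002272-138002521 on the plus strand for Slc2a1, chr1:106507842-106508091 on the plus strand for Ldha, chr1:203154963-203155212 on the minus strand for Bnip3 and chr1:174179950-174180199 on the plus strand for Adm. Capitals mark ACGTG or GCGTG on either strand, so that CACGT and CACGC are the reverse strand forms, and CACGTG is a match on both strands at once. Each is written 5′ to 3′ in the direction of the gene.
Hif1a: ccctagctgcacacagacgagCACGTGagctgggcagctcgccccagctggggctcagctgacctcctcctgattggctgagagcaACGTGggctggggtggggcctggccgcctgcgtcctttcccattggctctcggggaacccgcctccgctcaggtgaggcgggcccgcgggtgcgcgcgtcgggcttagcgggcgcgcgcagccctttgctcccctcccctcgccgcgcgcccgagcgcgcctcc
Epas1: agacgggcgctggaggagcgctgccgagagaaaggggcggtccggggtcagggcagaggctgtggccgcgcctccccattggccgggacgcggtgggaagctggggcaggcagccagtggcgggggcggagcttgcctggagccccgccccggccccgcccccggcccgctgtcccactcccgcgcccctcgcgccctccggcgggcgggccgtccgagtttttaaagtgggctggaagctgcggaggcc
Slc2a1: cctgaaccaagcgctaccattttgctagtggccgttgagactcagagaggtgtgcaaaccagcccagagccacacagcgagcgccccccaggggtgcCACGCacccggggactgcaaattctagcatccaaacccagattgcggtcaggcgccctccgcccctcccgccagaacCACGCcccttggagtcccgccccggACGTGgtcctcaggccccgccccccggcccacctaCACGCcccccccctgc
Ldha: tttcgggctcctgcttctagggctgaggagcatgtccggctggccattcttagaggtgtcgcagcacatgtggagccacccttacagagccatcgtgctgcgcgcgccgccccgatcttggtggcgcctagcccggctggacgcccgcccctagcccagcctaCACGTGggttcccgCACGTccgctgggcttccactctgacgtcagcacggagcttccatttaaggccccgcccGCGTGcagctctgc
Bnip3: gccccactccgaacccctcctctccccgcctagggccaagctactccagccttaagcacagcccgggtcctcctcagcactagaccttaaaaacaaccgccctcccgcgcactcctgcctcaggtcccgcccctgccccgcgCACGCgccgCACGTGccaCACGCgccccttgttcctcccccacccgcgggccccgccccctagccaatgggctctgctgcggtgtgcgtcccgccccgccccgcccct
Adm: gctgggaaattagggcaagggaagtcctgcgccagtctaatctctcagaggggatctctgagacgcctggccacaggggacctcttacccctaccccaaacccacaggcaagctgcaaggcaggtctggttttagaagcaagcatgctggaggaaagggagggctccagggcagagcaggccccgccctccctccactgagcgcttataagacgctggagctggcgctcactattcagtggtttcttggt

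The Slc2a1, Ldha and Bnip3 windows held 4 matches each and the Hif1a window 3, while the Epas1 and Adm windows held 0. RefSeq windows were found for 27 of the 30 tested members, and Pgk1, Ndrg1 and Hmox1 were not matched. At least 1 match was present for 18 of the 27 members. Counted by window, since some genes have several start sites, 59.4% of the 32 member windows held a match, against 36.7% of all 33469 windows. The member windows were richer in G and C, with a median of 63.4% against 51.2%. Among the 8420 windows of all genes whose GC content lay between 56.0% and 68.1%, the quartiles of the members, 55.5% held a match. The median log2 fold change with digitoxin, described with the comparison of treatment, was -0.58 for the 18 members with a match and -0.42 for the 9 without. Without A6 the median over all tested members was -0.10, so the difference between these 2 medians is not firm. A match is a run of letters and is not evidence of binding.

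The libraries differed in composition before any comparison of treatment, and A1, A6, B5 and B9 carried lung mRNAs that put their label as PAIII tumor in question. Sftpc, a surfactant mRNA of alveolar cells, measured 19188 to 63514 FPKM in A1, A6, B5 and B9, against 0.229 FPKM in A12 and a listed 0 in B14. Of the 12 lung alveolar markers sought 11 were in the table, and all 11 were lower in A12 and B14 than in the other 4 tumors. Of these, 4 were listed at 0 in A12 and 5 in B14, Sftpb and Lamp3 among them in both. Scgb1a1, a secretory mRNA of the airways, was the highest row of the table in A1 and A6 and made up 12.6% of the FPKM sum of A6. The sum of the alveolar markers ran from 938 to 124321 FPKM in digitoxin-treated and from 1869 to 61728 FPKM in vehicle-treated tumors. The low ends, in A12 and B14, were mostly 1 gene of the list, Lyz2, at 887 and 1791 FPKM. Cell division markers moved the other way, with a sum of 95.7 FPKM in A6, 464 FPKM in A1, 604 to 623 FPKM in B5 and B9, and 829 to 895 FPKM in B14 and A12. Of the prostate epithelial markers, Krt8 and Epcam were present in every tumor, at 398 to 2095 and 208 to 525 FPKM, while Pbsn and Msmb were listed at 0 in all 6. The prostate epithelial sum was 818 FPKM in A6, 1662 to 1676 FPKM in B9 and A1, 2382 to 2413 FPKM in B14 and B5, and 2985 FPKM in A12. Per the study's methods the punches came from primary tumors, guided by stained sections to regions rich in tumor cells, and lung metastases were collected too. Whether lung tissue entered these libraries was not tested. The sum of FPKM per tumor ran from 651322 to 1025231, and the depth behind each value is unknown. These tissue differences lie within both groups, and in bulk tissue fewer cells of a type cannot be told apart from less RNA per cell.

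The glycolysis and hypoxia response mRNAs varied together across the 6 tumors, in an order that cut across treatment. A12, which was digitoxin-treated, and B14, which was not, both stood above the other 4 tumors for 25 of the 30 tested members, against 30.1% of all symbols tested. A6 was the lowest tumor for 26 members (background 50.5%), and for 22 members A6 was lowest, A1 next, B5 and B9 in the middle, and A12 and B14 highest (background 21.1%). The exceptions to the high level in A12 and B14 were Epas1, Ldhb, Vegfa, Car9 and Gapdh. A12 and B14 themselves differed little, with a ratio of A12 to B14 between 0.586 for Hmox1 and 1.25 for Gapdh, and within 1.5-fold for 28 of the 30 (background 83.0%). With median-of-ratios scaling the count for A12 and B14 was again 25 (background 31.9%), that for A6 was 18 (38.5%), and the full order was met by 15 (17.6%).

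**Figure D1:**
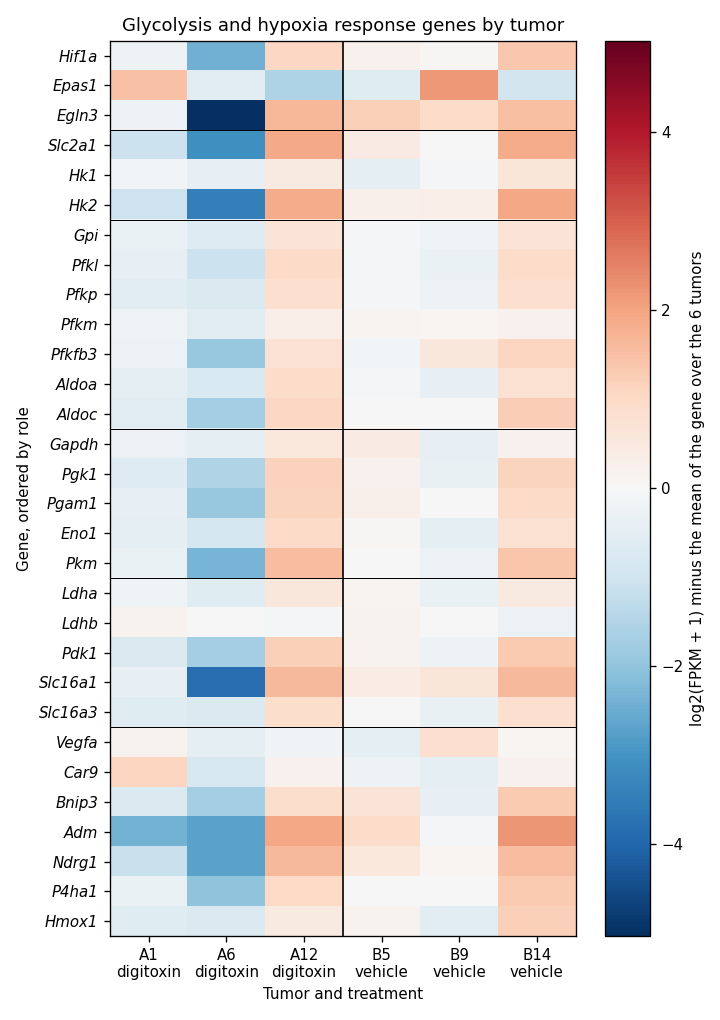
Color gives log2(FPKM + 1) of each of the 30 tested genes in each tumor, minus the mean of that gene over the 6 tumors. Horizontal lines separate roles and the vertical line separates digitoxin-treated (left) from vehicle-treated tumors. A12 and B14 hold the 2 highest values for 25 genes and the 2 lowest for Epas1 and Ldhb, and A6 holds the lowest value for 26.

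Together the 33 members made up 0.239% of the FPKM sum in A6, 0.489% in A1, 0.714% in B9, 0.754% in B5, 1.71% in A12 and 1.75% in B14. The 2 tumors with the highest share were the 2 with the lowest lung alveolar sum, and the tumor with the lowest share, A6, had the highest lung alveolar and endothelial sums and the lowest cell division sum. A6 was also highest for the neutrophil and erythroid sums, at 63136 and 13133 FPKM, and lowest for the macrophage sum, at 583 FPKM. The genes of these lists did not all move alike, since the neutrophil sum was mostly S100a8 and S100a9 while Cxcr2 was lowest in A6, and the macrophage sum was low in A6 for C1qa, C1qb and C1qc while Cd68 and Marco were highest there. A12 and B14 were lowest for the neutrophil sum, at 1416 and 3439 FPKM, and for the erythroid sum, at 116 and 390.3 FPKM, while the macrophage sum was highest in B14, at 1437 FPKM. The part of tissue composition in the levels of these genes was not tested beyond the fits given with the comparison of treatment. The median ratio of the highest to the lowest tumor was 8.35 for the members and 2.93 for all tested symbols. Within the digitoxin group alone the median ratio for the members was 6.997, and within the vehicle group alone it was 2.44. All tested symbols were also spread more widely with digitoxin, with medians of 2.53 and 1.63. A span of at least 10-fold was seen for 12 of the 30 (background 20.8%). For 25 of the 30 the digitoxin group was the more widely spread, against 76.5% of all symbols.

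**Figure D2:**
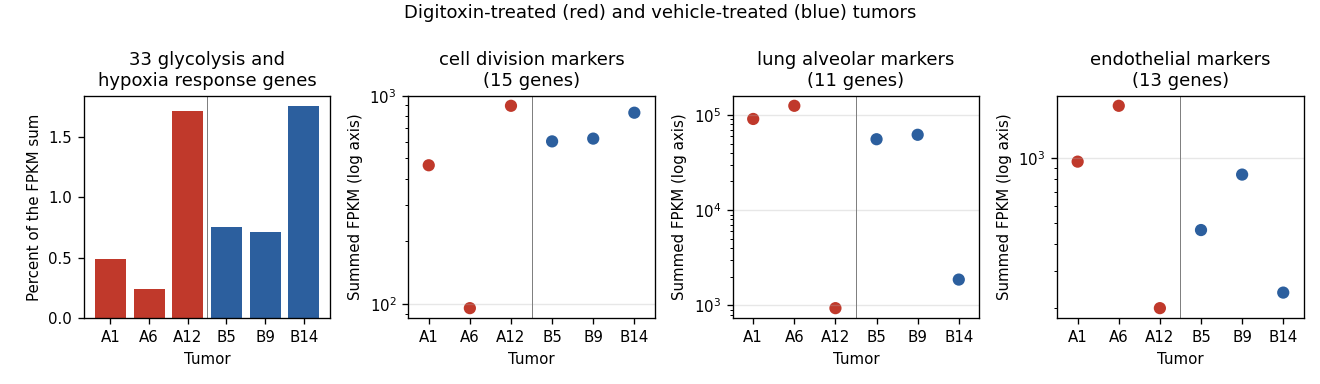
The first panel plots the 33 genes as a percent of the FPKM sum of each tumor, from 0.239% in A6 to 1.75% in B14. The other panels plot the summed FPKM of cell division, lung alveolar and endothelial markers on log axes. A12 and B14 have the lowest lung alveolar sums, 938 and 1869 FPKM, and A6 the lowest cell division sum, 95.7 FPKM.

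Hif1a and Epas1, which encode the 2 alpha subunits, followed different orders. Hif1a, on chromosome 6 from 106242729 to 106287704, measured 36.1, 7.34 and 89.9 FPKM with digitoxin and 49.8, 45.5 and 112 FPKM with vehicle. It was highest in B14 and A12 and lowest in A6, and the groups overlapped. Epas1, on chromosome 6 from 20299602 to 20377837, measured 67.7, 15.7 and 7.51 FPKM with digitoxin and 15.0, 110.5 and 12.2 FPKM with vehicle. It was high in A1 and B9 and lowest in A12 and B14, the opposite of Hif1a. The means were 44.4 ± 41.9 and 69.2 ± 37.3 FPKM for Hif1a and 30.3 ± 32.6 and 45.9 ± 56.0 FPKM for Epas1, in digitoxin-treated and vehicle-treated tumors (SD, n = 3 in each). The log2 fold change on the log2(FPKM + 1) scale was -1.08 (standard error 0.89) for Hif1a and -0.42 (standard error 1.08) for Epas1. The Hif1a value was -0.15 without A6 and -1.87 without A12. The Epas1 value was 0.24 without A12 and 0.56 without B9. Epas1 is among the genes that the study listed for a digitoxin effect in tumors of this experiment, so its direction is not taken as independent evidence.

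The ratio of Epas1 to Hif1a shows the contrast within each library, where scaling between tumors plays no part. Its values were 1.88, 2.14 and 0.0836 with digitoxin and 0.302, 2.43 and 0.108 with vehicle. The Epas1 mRNA thus exceeded the Hif1a mRNA in A1, A6 and B9 and was under it in A12, B5 and B14, a 29.0-fold span. The mean log2 ratio, with 1 FPKM added to both genes, was -0.51 ± 2.52 with digitoxin and -1.17 ± 2.22 with vehicle (SD, n = 3 in each), with p = 1 by a two-sided exact permutation test. With 3 tumors against 3 that test cannot go below 0.10. The summed level of 13 endothelial markers ran from 201 to 1754 FPKM with digitoxin and from 237 to 839 FPKM with vehicle, and 8 of the 12 tested were lower in A12 and B14 than in the other 4 tumors. The endothelial mRNAs Pecam1 and Cdh5 were at 95.7 and 14.3 FPKM in A1 and at 70.3 and 27.3 FPKM in B9. In A6, Pecam1 was at 163 FPKM, its highest, and Cdh5 at 6.34 FPKM. The part of endothelial cells in the Epas1 level was not tested.

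Egln3 encodes a prolyl hydroxylase that is itself induced by low oxygen and feeds back on the alpha subunits. It had the widest span of all members, and measured 91.6, 2.44 and 358 FPKM with digitoxin and 257, 211 and 325 FPKM with vehicle. A1 and A6 were under every vehicle-treated tumor and A12 was above them, so the digitoxin group alone covered 146-fold while the vehicle group covered 1.54-fold. The log2 fold change was -2.43 (standard error 1.61), the most negative of the members, and it was -0.52 without A6 and -3.87 without A12. Of the partners in the same system, chosen for naming whatever their values, Arnt had -0.88 (standard error 0.59) and Vhl -0.26 (0.30). Hif1an, the asparaginyl hydroxylase that blocks coactivator binding, had -1.02 (0.80). A6 was the lowest tumor for Arnt, Vhl and Hif1an, and their values without it are not given here. Egln2, another prolyl hydroxylase, had 0.46 (0.43) and was highest in A6 and lowest in A12 and B14. Hif1an measured 4.14, 1.47 and 16.6 FPKM with digitoxin and 6.94, 9.27 and 22.0 FPKM with vehicle, which is the order seen for most members, A6, A1, then B5 and B9, then A12 and B14.

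Glucose enters cells through Slc2a1, the main transporter of proliferating cells, and is trapped by the hexokinases Hk1 and Hk2. Slc2a1 measured 119, 29.5 and 949 FPKM with digitoxin and 337, 254 and 932 FPKM with vehicle. A12 and B14 were within 1.02-fold of each other, A6 was 32.2-fold lower than A12, and A1 and A6 were lower than each vehicle-treated tumor. The inducible hexokinase Hk2 measured 9.09, 0.908 and 74.8 FPKM with digitoxin and 23.7, 25.2 and 79.3 FPKM with vehicle, an 87.3-fold span. The constitutive hexokinase Hk1 ran only from 20.9 FPKM in B5 to 44.9 FPKM in B14, a 2.15-fold span. The log2 fold changes were -1.51 (standard error 1.25) for Slc2a1, -1.72 (1.32) for Hk2 and -0.0731 (0.38) for Hk1, and the last was 0.12 with median-of-ratios scaling. Without A6, Slc2a1 stood at -0.35 and Hk2 at -0.43, and without A12 at -2.83 and -3.09. Slc2a3, the high-affinity transporter, was listed at 0 in all 6 tumors on both of its rows, so no ratio to Slc2a1 was formed. Those entries are not read as absence of the mRNA.

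**Figure D3:**
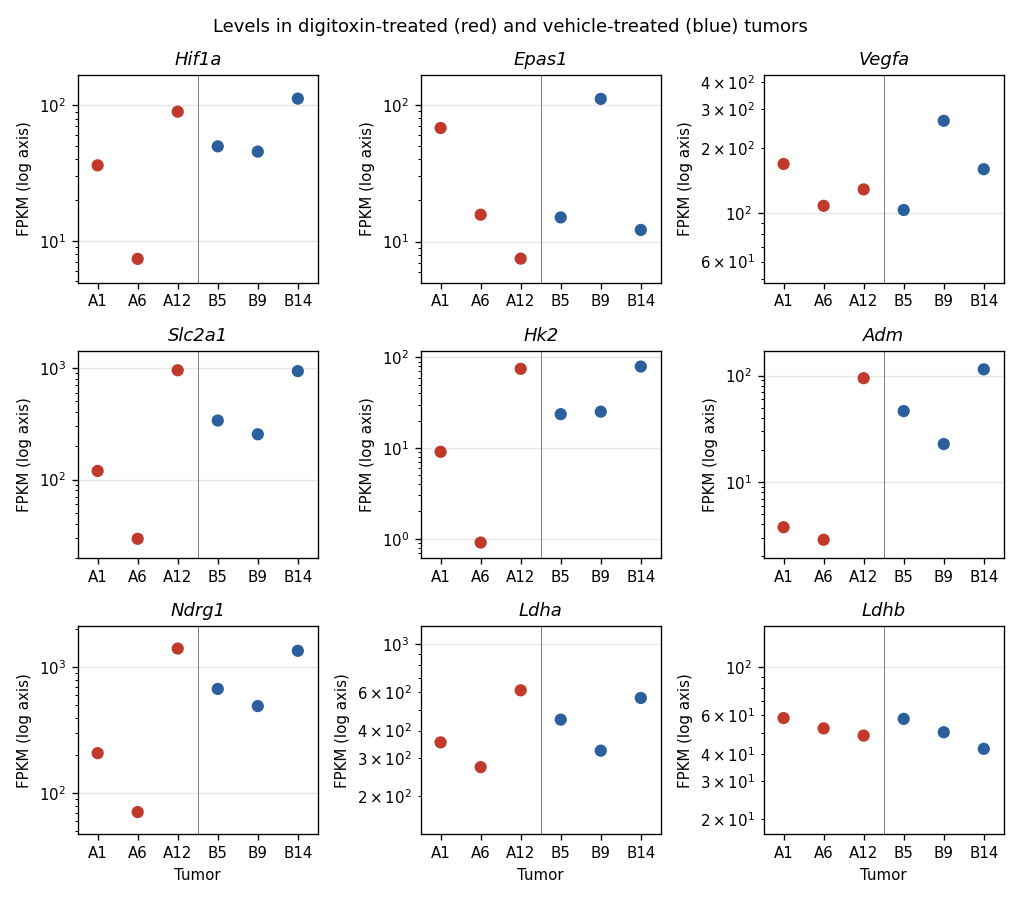
FPKM of 9 genes in each tumor, on log axes whose range differs between panels, with digitoxin-treated tumors in red and vehicle-treated tumors in blue. Slc2a1, Hk2, Adm and Ndrg1 share the order A6, A1, B5 and B9, then A12 and B14, Epas1 and Vegfa peak in A1 and B9, and Ldhb spans 1.38-fold.

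The upper glycolytic enzymes convert glucose phosphate to triose phosphate. All 7 tested members of this step had, in FPKM as deposited, the order A6 lowest, A1 next and A12 and B14 highest (background 21.1%), and Gpi, Pfkl, Pfkp and Aldoa lost it with median-of-ratios scaling, in which A12 and B14 were still the highest tumors. Aldoa, the main aldolase, was the most abundant member, and measured 839, 703 and 2268 FPKM with digitoxin and 1150.1, 896 and 2038 FPKM with vehicle. Gpi, which isomerizes glucose phosphate, ran from 224 FPKM in A6 to 565 FPKM in B14. The phosphofructokinases, which catalyze the committed step, ran from 36.3 to 156 FPKM for Pfkl, from 39.9 to 119.8 FPKM for Pfkp and from 8.93 to 17.4 FPKM for Pfkm, in each case from A6 to A12 or B14. Pfkm, the muscle form, was thus the least abundant of the 3 and the least variable. Wider spans were seen for Aldoc, the brain aldolase, from 7.82 to 66.8 FPKM, and for Pfkfb3, which makes the activator of phosphofructokinase, from 1.33 to 17.5 FPKM. The log2 fold changes of Aldoc and Pfkfb3 were -0.84 (standard error 0.74) and -0.99 (0.72), while those of the other 5 lay between -0.35 and -0.22. Without A6 Aldoc stood at -0.18 and Pfkfb3 at -0.28, and without A12 at -1.56 and -1.59. Tpi1, an enzyme that glycolysis cannot pass without, was listed at 0 in 5 tumors and at 0.0514 FPKM in A1, so its entry is not read as absence of the mRNA.

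The lower enzymes, from glyceraldehyde phosphate to pyruvate, differed in their span. Pgk1 measured 441, 239 and 1549.9 FPKM with digitoxin and 796, 535 and 1483 FPKM with vehicle. Pgam1 measured 506, 180.3 and 1470.1 FPKM with digitoxin and 819, 671 and 1327 FPKM with vehicle. Pkm, the pyruvate kinase made by most tumors, measured 75.6, 18.1 and 282 FPKM with digitoxin and 98.4, 78.2 and 252 FPKM with vehicle. The 3 mRNAs spanned 6.49-fold, 8.16-fold and 15.6-fold, in that order, with log2 fold changes of -0.65 (standard error 0.75), -0.81 (0.76) and -0.76 (1.001). Without A6 these were -0.0538, -0.0620 and 0.23, and without A12 -1.40, -1.57 and -1.72. Eno1, the widespread enolase, ran from 138 to 489 FPKM and Gapdh from 49.3 to 102 FPKM. Gapdh stood far under Aldoa, which acts earlier in the pathway, with an Aldoa to Gapdh ratio of 12.28 to 24.96, and its highest tumors were A12 and B5. Several of these genes, Gapdh above all, have near-identical processed copies in the genome that can share reads, so their levels are uncertain. The reason for the low Gapdh level was not tested. Eno2, the neuronal enolase, was listed at 0 in every tumor on both of its rows, and is not read as absent either. Slc2a3, Eno2, Tpi1 and Gapdh lie close together on chromosome 4, between 222573368 and 224697452. What lay behind the entries at or near 0 was not tested.

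Pyruvate can be turned to lactate by lactate dehydrogenase and exported by monocarboxylate transporters, or enter mitochondria unless Pdk1 blocks pyruvate dehydrogenase. Ldha measured 353, 272 and 613 FPKM with digitoxin and 449, 324 and 565 FPKM with vehicle. Ldhb, the form that favors lactate use, measured 58.4, 52.3 and 48.5 FPKM with digitoxin and 57.9, 50.2 and 42.2 FPKM with vehicle. Ldhb was the least variable member, with a 1.38-fold span, and it was lowest in A12 and B14, where Ldha was highest. The Ldha to Ldhb ratio was therefore 12.6 in A12 and 13.4 in B14 and lay between 5.20 and 7.76 in the other 4 tumors. Pdk1 ran from 6.83 FPKM in A6 to 63.9 FPKM in B14, and its log2 fold change was -0.84 (standard error 0.81), or -0.19 without A6 and -1.65 without A12.

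The 2 lactate transporters kept a like level in 5 tumors and parted in A6. Slc16a1, the widespread importer and exporter, measured 35.7, 2.39 and 150.1 FPKM with digitoxin and 61.4, 72.3 and 149 FPKM with vehicle. Slc16a3, the exporter of glycolytic cells, measured 59.5, 54.3 and 170.4 FPKM with digitoxin and 91.1, 69.4 and 164 FPKM with vehicle. Their ratio, Slc16a3 to Slc16a1, was 22.7 in A6 and between 0.959 and 1.67 in the other 5 tumors. The digitoxin group thus had a mean log2 ratio of 1.64 ± 2.08 against 0.21 ± 0.32 (SD, n = 3 in each), a difference of 1.43 that was 0.24 without A6.

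Of the 8 pairs of paralogs considered, 6 could be formed, and with 3 tumors against 3 none could have reached a p under 0.10, so the test could call no difference. The exact permutation p was 0.2 for Aldoa to Aldoc and for Slc16a3 to Slc16a1, 0.4 for Hk2 to Hk1, 0.5 for Ldha to Ldhb, and 1 for Pfkp to Pfkl and for Epas1 to Hif1a, and adjusted over the 6 by the method of Benjamini and Hochberg the smallest p was 0.6. The Hk2 to Hk1 ratio had the widest span, 43.7-fold, from 0.0430 in A6 and 0.351 in A1 through 0.927 to 1.13 in B9 and B5 to 1.77 and 1.88 in B14 and A12. The ratio of Pfkp to Pfkl was the steadiest, between 0.756 and 1.10.

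**Figure D4:**
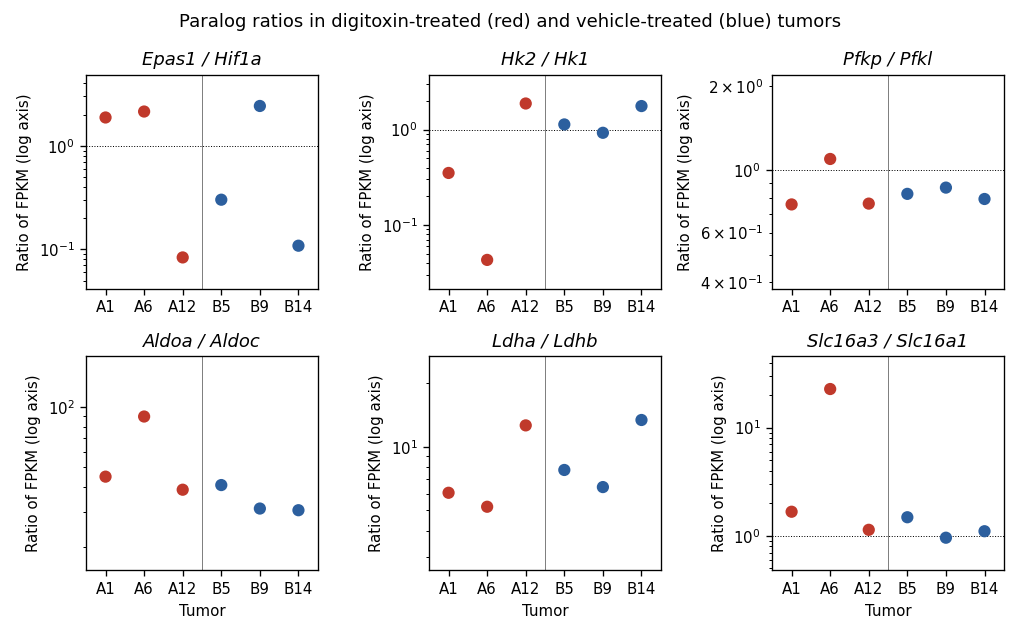
Ratios of the FPKM of 2 related genes in each tumor on log axes, with a dotted line at 1 where it is within range, digitoxin-treated tumors in red and vehicle-treated tumors in blue. The Epas1 to Hif1a ratio is above 1 in A1, A6 and B9, the Slc16a3 to Slc16a1 ratio reaches 22.7 in A6, and Ldha to Ldhb is highest in A12 and B14.

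The remaining members are response genes with other functions. Adm, which encodes the vasodilator peptide adrenomedullin, measured 3.77, 2.87 and 94.6 FPKM with digitoxin and 46.4, 22.8 and 115 FPKM with vehicle. A1 and A6 were both several-fold under the lowest vehicle-treated tumor, B9, and A12 was above B5 and B9 but not above B14. Ndrg1, a stress-responsive growth regulator, measured 209, 71.1 and 1409 FPKM with digitoxin and 674, 493 and 1352 FPKM with vehicle. Bnip3, a mitophagy receptor, measured 25.7, 12.6 and 80.7 FPKM with digitoxin and 67.7, 32.3 and 109 FPKM with vehicle. Their log2 fold changes were -2.07 (standard error 1.32), -1.47 (1.08) and -1.03 (0.75). Without A6 they were -1.25, -0.50 and -0.44, and without A12 -3.56, -2.64 and -1.73.

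P4ha1, a collagen prolyl hydroxylase subunit, ran from 12.7 FPKM in A6 to 139 FPKM in B14, and Hmox1, the heme-degrading oxygenase, from 127 FPKM in A6 to 487 FPKM in B14. Vegfa, the endothelial growth factor, did not follow the other response genes. It measured 168, 108 and 129 FPKM with digitoxin and 104, 266 and 159 FPKM with vehicle. Its highest tumors were B9 and A1, the same as for Epas1, but its 2.57-fold span was far narrower than the 14.7-fold span of Epas1. A joint maximum in A1 and B9 was met by 2 of the 30 members and by 8.40% of all tested symbols, and by 1 member when each tumor was scaled to the same FPKM sum. Car9, the carbonic anhydrase used as a marker of hypoxia, was low, at 3.14 FPKM in A1 and at or below 1.29 FPKM in the other 5 tumors.

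With limma's moderated test, 0 of the 30 members differed between digitoxin-treated and vehicle-treated tumors at an adjusted p under 0.05 (background 0.00%), and the adjusted p of the members ran from 0.926 to 0.972. At an unadjusted p under 0.05 there were also 0 members (background 0.335%), and the smallest unadjusted p was 0.166, for Adm. A negative log2 fold change was found for 28 of the 30, against 64.9% of all symbols, and Ldhb and Car9 were the exceptions. It was -1 or lower for 8, against 6.36%: Egln3, Adm, Slc16a1, Hk2, Slc2a1, Ndrg1, Hif1a and Bnip3. Without A6 only Adm was at -1 or lower (background 0.652%), and without B14 5 members were (background 4.83%), namely Egln3, Hk2, Slc16a1, Adm and Ndrg1. The count rose to 9 without A1 (background 9.14%), 10 without B5 (10.5%), 13 without B9 (7.51%) and 15 without A12 (18.2%). The median over the members was -0.61 and that over all symbols -0.16, so the members stood 0.45 lower on the log2 scale. Without A6 the median of the members was -0.10 and that of all symbols -0.0801, and without B14 they were -0.29 and -0.23, so the lower median rests largely on these 2 libraries. The members below 0 were then 20 of the 30 without A6, against 66.3% of all symbols, and 21 without B14, against 74.8%. Without A12 it was -1.17 against -0.23, and 14 members then had an unadjusted p under 0.05, all lower (background 15.6% lower), with 0 at an adjusted p under 0.05. With median-of-ratios scaling, which moved the median of all symbols by 0.18, 25 of the 30 were below 0 against 48.6% of all symbols. No member had groups that did not overlap, which 3.26% of all symbols had with digitoxin lower and 0.903% with digitoxin higher.

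The comparison changed when the replicate numbers were treated as pairs, which set A1 against B5, A6 against B9 and A12 against B14. Each tumor is a separate rat, and no source says what a number marks. Relative to group means, A1 had a higher Pearson r with B9 (0.648) than with B5 (0.430), so the pairing is not established. At an unadjusted p under 0.05 limma then gave 7 members, all lower with digitoxin (background 2.84% lower), namely Hif1a, Slc2a1, Hk2, Pdk1, Bnip3, Adm and Ndrg1. All 7 had an adjusted p of 0.638, so 0 passed the adjusted threshold in this fit too. The standard error of Adm became 0.57 and that of Bnip3 0.28, with the same fold changes as before. In FPKM, 11 of the 30 were lower in the digitoxin-treated tumor of all 3 pairs, against 22.4% of all symbols.

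In A1, A6, B5 and B9, the 4 tumors with high surfactant mRNA, 22 of the 30 members were lower in both digitoxin-treated tumors than in both vehicle-treated tumors, against 40.1% of all symbols. That count was 15 (background 26.3%) with median-of-ratios scaling. Adm had the smallest p, at -2.97 on the log2 scale (standard error 0.46) and an adjusted p of 0.391. At an unadjusted p under 0.05 there were 11 members, all lower (background 11.1% in either direction and 7.18% lower), and 0 passed an adjusted p under 0.05 (background 0.0186%). A negative log2 fold change was found for the same number of members as in all 6 tumors, 28 (background 64.6%). Even so, the lung alveolar sum was 90460 and 124321 FPKM in A1 and A6 against 55451 and 61728 FPKM in B5 and B9, and the cell division sum 464 and 95.7 FPKM against 604 and 623 FPKM, and within these 4 tumors treatment and tissue makeup cannot be told apart. Between the 2 tumors with almost no surfactant mRNA, A12 and B14, which allow no test, 28 of the 30 members were within 1.5-fold, near the 83.0% of all symbols. With the mean lung alveolar level as a covariate over all 6 tumors, 3 members had an unadjusted p under 0.05, namely Bnip3, Adm and Ndrg1 (background 2.52% lower), at log2 fold changes of -0.94, -1.90 and -1.34.

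**Figure D5:**
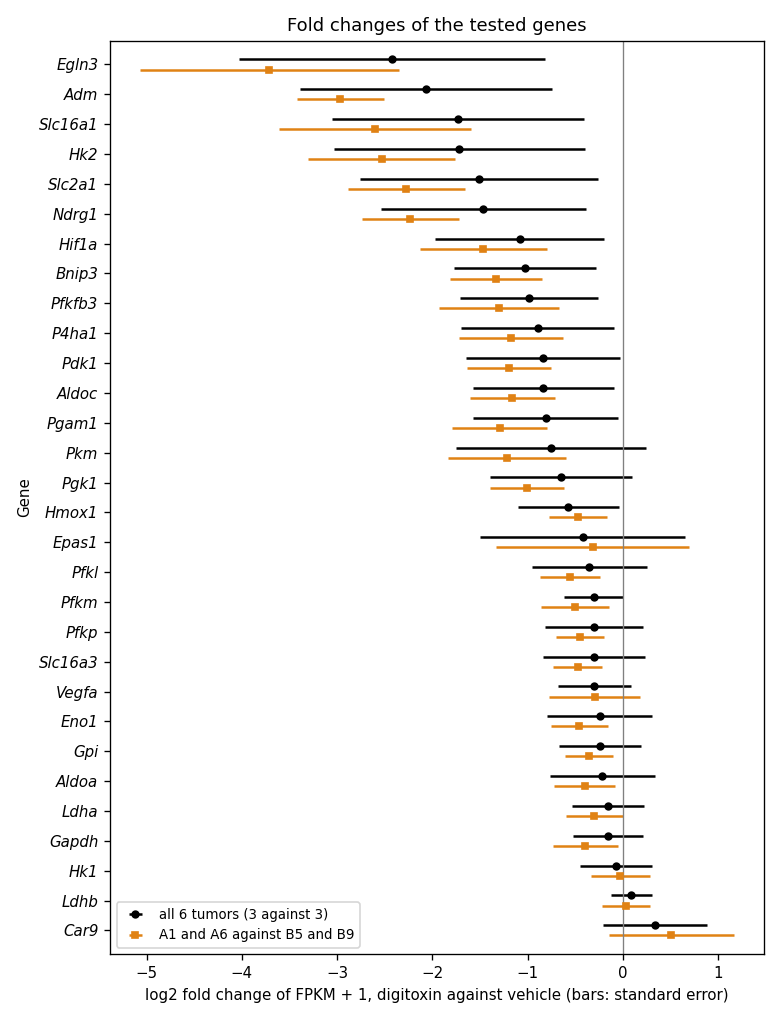
Log2 fold changes of the 30 tested genes, digitoxin against vehicle, on the log2(FPKM + 1) scale, with bars for the standard error. Black circles are the fit to all 6 tumors and orange squares the fit to A1, A6, B5 and B9, and 28 of the 30 genes lie below 0 in both, with Egln3 and Adm lowest.

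Other genes of glycolysis and the hypoxia response were followed from a list of 61, of which 60 were in the table and 52 were tested. None passed an adjusted or an unadjusted p under 0.05 in limma's fit to all 6 tumors (background 0.00% and 0.335%). A negative log2 fold change was found for 41 of the 52 (background 64.9%), and their median was -0.32. A12 and B14 stood above the other 4 tumors for 30 of the 52 and below them for 11, against 30.1% and 29.3% of all symbols, and A6 was lowest for 35 (background 50.5%). Pdha1, a subunit of pyruvate dehydrogenase, was the only one of the 52 with groups that did not overlap, a share below the 3.26% of all symbols. It measured 33.5, 23.1 and 31.9 FPKM with digitoxin and 35.8, 36.6 and 37.2 FPKM with vehicle, a log2 fold change of -0.32 (0.23), and it was singled out after its values were seen.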

How the data were processed

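The authors deposited 1 table of FPKM with a column per tumor, made from single reads of TruSeq libraries by Bowtie 2, TopHat 2 and Cufflinks 2. The submitters' processing notes name the human build hg19, although the positions given with the values lie on rat chromosomes, and a rat build is not given in the sources used here. Positions are therefore printed as deposited. No column was left unmatched to a sample. Promoter sequences came from RefSeq (GRCr8). The depth per tumor is unknown, so no counting error can be given.

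Where a symbol had several rows, the one with the highest mean was used. Groups were compared on log2(FPKM + 1), as deposited, with limma 3.58.1 in R 4.3.3 (lmFit and eBayes with a trend) for the 10740 symbols whose mean reached 1 FPKM. Tests were two-sided, with p-values adjusted over all symbols by the method of Benjamini and Hochberg. Such a scale understates changes of low mRNAs. Paralog ratios were compared by an exact permutation test with 1 FPKM added to each gene. The authors' own test, by Cuffdiff, starts from reads and was not run here. The fit and the permutation test were run on simulated data as a check of the code, which is not evidence about these tumors. Python 3.11.15, pandas 2.3.3 and matplotlib 3.10.9 were used for the rest.

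The members, lists and tests were chosen with earlier results of these data known. Named genes were every member, Arnt, Vhl and Hif1an, other pathway genes with an unadjusted p under 0.05, and 6 marker mRNAs (Sftpc, Sftpb, Pecam1, Cdh5, Mki67 and Epcam). Scgb1a1, and Lamp3 and Lyz2 of the lung list, and the neutrophil and macrophage mRNAs were named outside that rule, after their values were seen. So were Krt8, Pbsn and Msmb, of the prostate list, and Egln2 and Pdha1. Marker lists covered lung alveolar, endothelial, macrophage, neutrophil, erythroid, dividing and prostate epithelial cells, and Flt1 is in both the endothelial and the pathway list.

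A check was made of whether replicate numbers pair the tumors. The log2 values of the same-numbered tumors, each taken relative to its group mean, had a Pearson r over the tested symbols of 0.430, 0.607 and 0.869 for numbers 1, 2 and 3. The replicate block is given where it changes a count, although no source says what a number marks. As r was 0.648 between A1 and B9 and 0.612 between A6 and B5, the check cannot establish that the numbers pair the tumors. Each tumor is a separate rat. Alternatives were another pseudocount, no filter, 2 other scalings, no trend, summed rows, the replicate block, the lung alveolar level as a covariate, each tumor left out, and A12 and B14 left out together. Counts of the tumor order under the other scalings were added after the data were seen.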

Additional observations from a re-analysis of the deposited data

How the results depend on the processing

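No member had an adjusted p under 0.05 in limma with any of the 15 alternatives. The number of members with an unadjusted p under 0.05, 0 in the fit reported, was 7 with the replicate block, 3 with the lung alveolar level as a covariate, 11 without A12 and B14, and 0 to 14 with 1 tumor left out, the 14 being without A12 and the other 5 fits giving 0. The replicate block changed no other call. Under median-of-ratios scaling Hk1 turned to a log2 fold change of 0.12, Gapdh to 0.0380 and Ldha to 0.0361, and with each tumor scaled to the same FPKM sum that of Ldhb became -0.0911. Leaving out each tumor in turn turned the direction of 14 members, whose log2 fold changes ran from -1.26 to 0.56 for Epas1, -0.32 to 0.22 for Hk1, -0.63 to 0.0337 for Gpi, -0.93 to 0.11 for Pfkl, -0.79 to 0.0449 for Pfkp, -0.74 to 0.12 for Aldoa, -0.47 to 0.0505 for Gapdh, -0.78 to 0.13 for Eno1, -1.72 to 0.23 for Pkm, -0.49 to 0.0974 for Ldha, -0.0270 to 0.20 for Ldhb, -0.82 to 0.0456 for Slc16a3, -0.63 to 0.0484 for Vegfa and -0.12 to 0.81 for Car9. The differences of log2 ratios ran from -0.30 to 2.12 for Epas1 to Hif1a, -0.12 to 0.14 for Pfkp to Pfkl and -0.64 to 0.0555 for Ldha to Ldhb. The median over the members was -1.17 without A12 and -0.10 without A6, the extremes,, and of the 28 members below 0 in all 6 tumors 20 stayed so without A6 and 20 without B14, where Ldhb joined them. All 28 came closer to 0 by over 1.5 times, or turned, without A6, as did 19 without B14, while 26 moved further from 0 by over 1.5 times without A12. In counts added after the data were seen, A6 was lowest for 18 members with median-of-ratios scaling (38.5% of all symbols) and for 29 with equal sums (63.7%), the full order of tumors was met by 15 (17.6%) and 25 (28.7%), and the joint maximum in A1 and B9 by 2 (4.56%) and 1 (12.04%). With 3 tumors in a group and no read depth, a p that misses the threshold does not show that levels were alike, and the precision of low mRNAs such as Car9 is unknown. The causes of these changes were not tested.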
